A study of Homo sapiens with 12 samples.

Results

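SKOV3_TR is a taxol-resistant derivative of the ovarian cancer cell line SKOV3, and the genes described here are those that stood apart between the 2 lines in the same direction with and without quinacrine (QC), an antimalarial drug. RNA-seq was run on 12 libraries from 3 pairs of a drug-sensitive line and its resistant derivative (SKOV3, HeyA8 and OV2008, with SKOV3_TR, HeyA8_MDR and OV2008_C13), and 4 of these libraries come from the SKOV3 pair. Each line was treated for 6 h with 8 µM QC or with buffer (vehicle), and each combination gave a single library of polyA RNA. The comparison set SKOV3_TR vehicle against SKOV3 vehicle and SKOV3_TR QC against SKOV3 QC, and a gene was called where edgeR's quasi-likelihood test over the 4 libraries gave an adjusted p under 0.05 and SKOV3_TR lay on the same side of SKOV3 in both pairs. Of the 60669 gene IDs in the table, 17355 had enough counts to be tested and 8498 were called. SKOV3_TR is 1 resistant derivative and a line has no replicate cultures. The p-values therefore set the line difference against how far the difference in vehicle departed from the difference in QC, a spread shared across genes. They do not measure the spread between cultures. A difference that came with drug selection and one that came with time in culture cannot be told apart. As the libraries are bulk RNA, fewer cells of a type and less RNA per cell cannot be told apart either.

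Taxanes bind tubulin and stabilise microtubules, which halts cells in mitosis. Cultured cells that survive long exposure to them are known for high levels of ABCB1 (P-glycoprotein), a membrane pump that exports taxanes and many other drugs, and altered tubulin isotypes and altered control of apoptosis have also been described. SKOV3 itself is known for an amplified segment of chromosome 17 that holds the receptor gene ERBB2 and its neighbours.

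The 4 libraries held 21604010 (SKOV3 vehicle), 19659854 (SKOV3 QC), 29397993 (SKOV3_TR vehicle) and 17782556 (SKOV3_TR QC) counts. The amplified segment marked both lines: ERBB2 stood at 8398 and 7027 CPM (counts scaled to the size of the library, here with all 12 libraries normalized together) in SKOV3 vehicle and QC and at 4127 and 3442 in SKOV3_TR, against 33.7 to 134.8 in the other 4 lines. STARD3, PGAP3 and MIEN1 were likewise above every library of the other lines in all 4 libraries. Within the segment GRB7, which encodes an adaptor that binds ERBB2, was higher in SKOV3_TR (log2 difference 2.23 ± 0.25 (SE), adjusted p = 6.68e-06) and MIEN1 was lower (-1.37 ± 0.28, adjusted p = 0.00116). Markers of blood, endothelial and stromal cells were at or near 0 in most cases: CD3E and HBB had no counts, 2 of the 9 markers found by symbol had enough counts to be tested, and the 9 together reached between 0.939 and 8.14 CPM per library. VWF, a protein of endothelial cells and platelets, had 0 and 0 counts in SKOV3 and 179 and 32 in SKOV3_TR. The part of such markers in other results was not tested. Across genes, log2 CPM correlated at 0.986 between the vehicle and QC libraries of SKOV3, at 0.982 between those of SKOV3_TR, and between 0.891 and 0.898 across the 2 lines, while SKOV3_TR correlated between 0.759 and 0.787 with the lines of the other families. These correlations are a description, and the points share the gene lengths and the library kit.

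The line difference was broad, and most genes lay on the same side of the parent in both treatments. Of the 17355 genes tested, 49% were called, 26.8% (4652 genes) higher and 22.2% (3846) lower in SKOV3_TR. These shares are the background for the counts of each gene list below. With so many calls, genes are read here by size: 1368 genes (7.88%) were called and at least 4-fold higher in both pairs, a log2 difference of 2 or more, and 650 (3.75%) at least 4-fold lower. At 16-fold, 347 genes were higher and 136 lower. SKOV3_TR was on the same side in both pairs for 14466 of the genes tested (83.4%). Of the 1788 genes at least 4-fold higher in vehicle, 1776 were also higher in QC, and of the 851 at least 4-fold lower in vehicle, 833 were also lower in QC. The median over all genes tested was 0.03 in the vehicle pair and 0.05 in the QC pair, so the scaling set the lines level. In 32 genes the lines were at least 2-fold apart in opposite directions. Fits over all 12 libraries called 2839 genes without SKOV3 vehicle, 2836 without SKOV3 QC, 2999 without SKOV3_TR vehicle and 2392 without SKOV3_TR QC, against 5745 with every library.

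**Figure D1:**
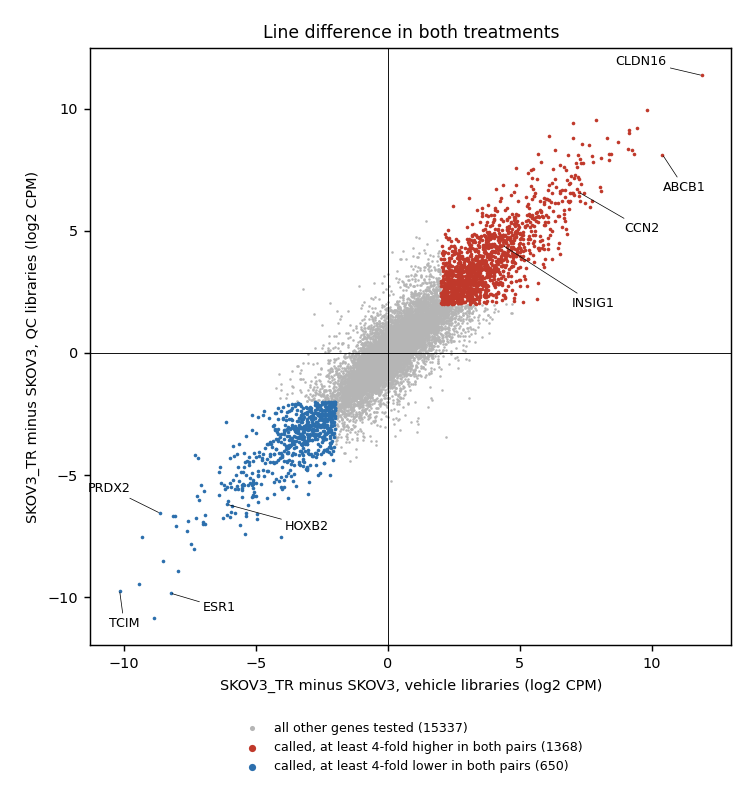
Each point is 1 of 17355 genes, placed by its log2 CPM difference between SKOV3_TR and SKOV3 in vehicle (x axis) and in QC (y axis). The 1368 red and 650 blue genes are called and at least 4-fold apart in both pairs, and the cloud lies along the diagonal.

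The other resistant lines were closer to their parents. Counted over the 20403 genes that passed the filter on all 12 libraries, 1448 genes were at least 4-fold higher and 688 at least 4-fold lower in both pairs for SKOV3_TR, against 284 and 198 for OV2008_C13 and 20 and 210 for HeyA8_MDR. In vehicle alone 2970 genes were at least 4-fold apart in either direction for SKOV3_TR, 1780 for HeyA8_MDR and 1212 for OV2008_C13. The HeyA8 QC library stood apart: over 109 genes at least 8-fold apart between HeyA8 and HeyA8_MDR in vehicle, it lay a median of 46.5% of the way from HeyA8 to HeyA8_MDR in CPM, and the HeyA8 counts over both pairs rest on it. For the SKOV3 pair, over 469 such genes, SKOV3 QC lay a median of 0.029% of the way from SKOV3 to SKOV3_TR, and SKOV3_TR QC 0.873% of the way back. A direct test of the SKOV3 pair difference against the mean of the other pairs passed for 3490 of the 20403 genes (17.1%), and for 3439 against the OV2008 pair alone.

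Some genes were close to silent in 1 line and abundant in the other. With 3 counts or fewer in each library of the low line and 100 or more in each of the high line, 72 genes were seen in SKOV3_TR alone, 52 of them protein-coding, and 20 in SKOV3 alone, 17 of them protein-coding. Of the 72, 25 reached 1 CPM in another line of the series.

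CLDN16, a claudin of tight junctions known for magnesium reabsorption in the kidney, had the largest difference: 0.185 and 0.35 CPM in SKOV3 vehicle and QC against 1060 and 1157 in SKOV3_TR, from 4 and 7 counts against 32170 and 19473 (CPM from here on are normalized over the 4 libraries of the pair). The log2 difference was 11.91 in vehicle and 11.36 in QC (adjusted p = 2.49e-10), and both SKOV3_TR libraries lay far above both SKOV3 libraries. TM4SF4, a membrane protein of the transmembrane 4 superfamily, had no counts in SKOV3 and 2440 and 1498 in SKOV3_TR, which with a floor of 3 counts per library is at least 579-fold higher in vehicle and 593.6-fold in QC. KRT5, a keratin of basal epithelia, had no counts in SKOV3 and 1672 and 483 in SKOV3_TR, at least 396.7-fold and 191.4-fold higher. STRA6, the membrane receptor for vitamin A bound to its carrier protein, also had no counts in SKOV3 against 1490 and 494. MAGEB2, a cancer-testis antigen, had 0 and 2 counts against 1907 and 1893, a ratio of 1676 over the summed libraries (95% counting interval 463.6 to 13840, which covers counting error only). APOE, a lipid-carrying apolipoprotein, stood at 0.37 and 0.3 CPM in SKOV3 and at 146.4 and 172.8 in SKOV3_TR (log2 8.86 ± 0.29, adjusted p = 2.49e-10). None of these genes had overlapping values between the lines, which the way they were chosen fixes and which held for 76.1% of all genes tested.

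Genes nearly silent in SKOV3_TR included a hormone receptor and the folate receptor. ESR1, which encodes estrogen receptor alpha, had 167 and 190.7 CPM in SKOV3 vehicle and QC against 0.461 and 0.119 in SKOV3_TR (log2 -9.04 ± 0.34, adjusted p = 4.4e-10). FOLR1, the folate receptor alpha of many ovarian carcinomas, had 525 and 422 counts in SKOV3 against 0 and 2, a ratio of 536.9 over the summed libraries (95% counting interval 148.2 to 4440). SYK, a tyrosine kinase of immune receptor signalling, had 556 and 465 counts against 2 and 0. PRDX2, a peroxiredoxin that reduces hydrogen peroxide, stood at 205.9 and 205 CPM in SKOV3 and at 0.428 and 2.08 in SKOV3_TR (log2 -7.59 ± 0.40, adjusted p = 5.09e-09). Both SKOV3_TR libraries were again far below both SKOV3 libraries. CYBA, a membrane subunit of NADPH oxidases, stood at 126.3 and 123.9 CPM in SKOV3 and 0.395 and 0.832 in SKOV3_TR. IDO1, which begins the breakdown of tryptophan, stood at 230.1 and 162.1 CPM against 0.725 and 1.49. TCIM, a small regulator linked to WNT signalling, had the largest negative mean difference of the 12 lower genes named by size, with 7174 and 3545 counts in SKOV3 and 6 and 2 in SKOV3_TR. POTEC, with 1347 and 1258 counts in SKOV3 and none in SKOV3_TR, belongs to a family of near-identical copies, so its reads are uncertain.

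**Figure D2:**
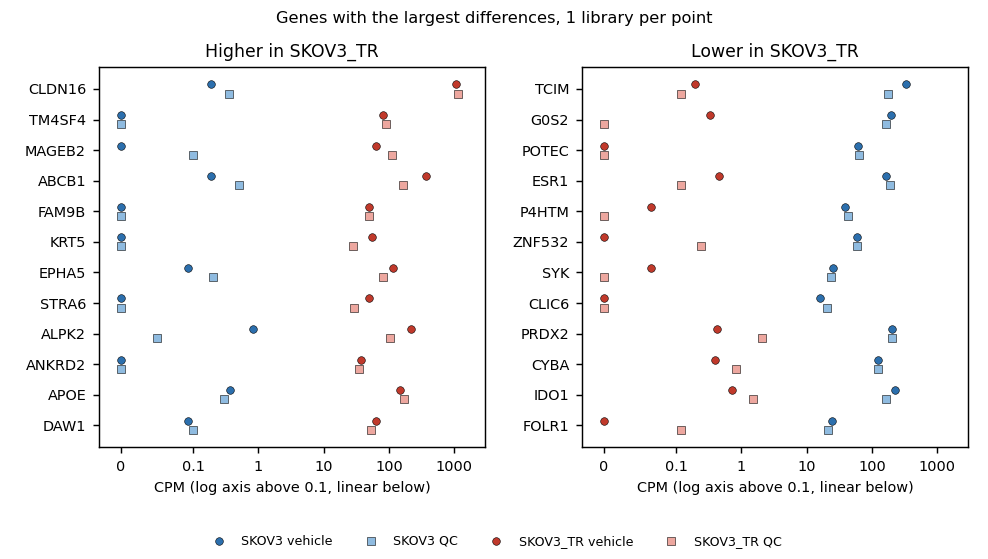
CPM in each library for the 12 genes with the largest differences in each direction, on an axis that is logarithmic above 0.1 and linear below it, with blue for SKOV3, red for SKOV3_TR, circles for vehicle and squares for QC. The 24 genes were chosen for these differences, so red and blue points stand apart, and CLDN16 reaches 1060 and 1157 CPM in SKOV3_TR.

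ABCB1, the drug pump best known in taxane resistance, was close to silent in SKOV3 and abundant in SKOV3_TR. It had 4 and 10 counts in SKOV3 vehicle and QC (0.185 and 0.5 CPM) and 11298 and 2768 in SKOV3_TR (372.3 and 164.5 CPM). The lines did not overlap, as in 76.1% of all genes tested. The log2 difference was 10.40 in vehicle and 8.12 in QC (edgeR 9.55 ± 0.40, adjusted p = 9.43e-10). In the HeyA8 pair it was 3.67 and 1.03, and in the OV2008 pair, whose derivative had less than its parent, -5.80 and -3.97. The SKOV3 pair stood 11.33 above the mean of the others (adjusted p = 3.44e-05). Among 8 drug pumps of the ABC family that could be tested, 2 were called higher and 3 lower, where the shares over all genes are 26.8% and 22.2%. As a family the pumps were thus near the background. The fit on all 12 libraries called 2 higher and 1 lower. ABCC2, an apical pump for conjugated drugs, was the other gain, with 27 and 16 counts in SKOV3 and 1841 and 1553 in SKOV3_TR (log2 6.17 ± 0.30, adjusted p = 2.47e-09), and it was also higher in OV2008_C13 than in OV2008 (4.04 and 4.07). ABCC3, a basolateral pump of the same kind, was lower, at 240.9 and 186.8 CPM against 49.9 and 47.7 (log2 -2.12 ± 0.19). ABCC1 (0.19 and -0.12) and ABCG2 (-0.33 and 0.55), both pumps tied to drug resistance in other cells, did not pass.

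Genes next to ABCB1 on chromosome 7 were higher too, by far less. Of 10 listed neighbours tested, 9 were called higher and none lower, with medians of 1.35 in vehicle and 1.48 in QC. The background of higher calls is 26.8% over all genes. Over the 630 tested protein-coding genes of chromosome 7 it is 46.5%, with 8.1% lower. ELAPOR2, a membrane protein of endosomes and lysosomes whose gene lies near the pump's, stood at 6.11 and 5.95 CPM in SKOV3 and at 40.8 and 27.3 in SKOV3_TR (log2 2.47 ± 0.23, adjusted p = 1.45e-06). DBF4, the activating subunit of a kinase that starts DNA replication, stood at 5.97 and 15.4 CPM in SKOV3 and 38.2 and 52 in SKOV3_TR. SRI, a calcium-binding protein, stood at 59.8 and 58.5 against 136.1 and 200.2, and its call was lost without SKOV3 QC and without SKOV3_TR QC. The fit on all 12 libraries called 7 of the 10 higher, and the fits that left out SKOV3 vehicle, SKOV3 QC, SKOV3_TR vehicle or SKOV3_TR QC called 5, 2, 3 and 3. Along the chromosome, 29 tested protein-coding genes in a row from TMEM60 to MTERF1 had medians of 1.10 and 1.09, with 19 called higher and 1 lower. Within that run CD36, a fatty acid and thrombospondin receptor, had 0 counts in SKOV3 and 36 and 29 in SKOV3_TR, and SEMA3E, a secreted guidance cue, 0 against 208 and 84.

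**Figure D3:**
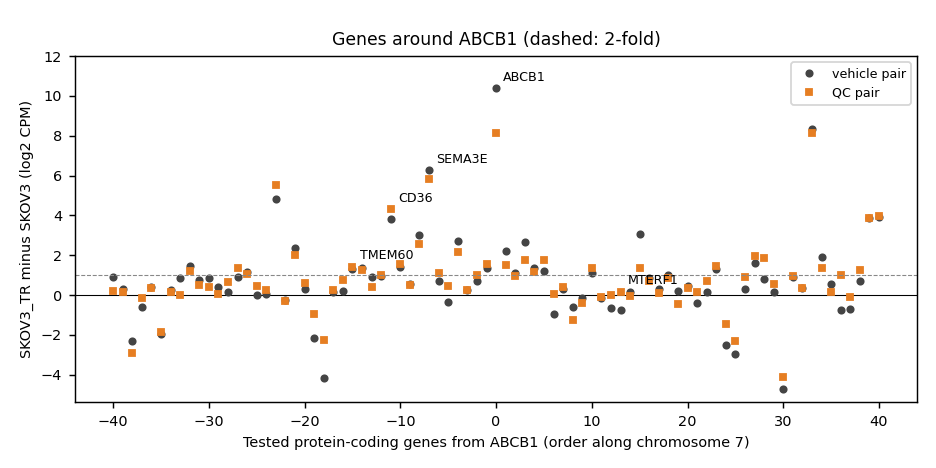
Log2 CPM difference between SKOV3_TR and SKOV3 for tested protein-coding genes in their order along chromosome 7, counted from ABCB1, with circles for the vehicle pair and squares for the QC pair. ABCB1 stands at 10.40 and 8.12, and of the 29 genes from TMEM60 to MTERF1, 15 lie above the dashed line of 2-fold in vehicle and 16 in QC. Genes of the run beside ABCB1 range from -0.96 to 6.27 in vehicle and from -1.26 to 5.82 in QC.

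The run at ABCB1 was 1 of 42 such runs, each made by joining overlapping windows of 15 genes whose median difference was at least 1 in size, so that a joined run can have a smaller median. The 42 runs held 972 of 13465 protein-coding genes in order, and 29 runs were higher and 13 lower in SKOV3_TR. The longest lay on chromosome 14 from TTC5 to NGDN, where 37 of 45 genes were called higher and none lower (medians 0.86 and 1.19). On chromosome 7 another run, from VWDE to STK31, had 24 of 32 higher and none lower (1.29 and 1.19), and it holds MACC1, a regulator of MET expression, with 1 and 0 counts in SKOV3 and 581 and 328 in SKOV3_TR. The run from PEG10 to TMEM130, also on chromosome 7, had medians of 1.62 and 1.32, and PEG10, an imprinted gene derived from a retrotransposon, stood at 1.11 and 1.7 CPM against 395.4 and 501.2. Lower runs lay on several chromosomes. Those on chromosome 13 ran from MPHOSPH8 to CDK8 (22 of 30 genes lower, 5 higher) and from NAA16 to TRIM13 (24 of 37 lower, 1 higher). Chromosome 3 also held lower runs, such as that from EOMES to STAC (16 of 24 lower, none higher). Over whole chromosomes the median difference ran from -0.68 on chromosome 13, with 59% of its 217 genes lower, to 0.60 on chromosome 14, with 53.7% of its 428 genes higher, and chromosome 7 stood at 0.50. Neighbouring runs on chromosome 5 hold protocadherins that share exons, where reads on single members are uncertain. Gene copy number was not measured.

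Tubulins, whose alpha and beta forms are the targets of the drug, differed less than the pump. The list also held gamma, delta and epsilon tubulins (TUBG1, TUBG2, TUBD1 and TUBE1), none of which was called. Of 17 tubulin genes tested, 10 were called higher and none lower, where the shares over all genes are 26.8% and 22.2%. The medians were 0.55 and 0.64, and 2 were at least 4-fold higher in both pairs, against 7.88% of all genes. TUBB4A, a beta-tubulin typical of neurons, stood at 6.3 and 6.5 CPM in SKOV3 and 24 and 24.2 in SKOV3_TR (log2 1.91 ± 0.23, adjusted p = 1.31e-05). TUBB2B, another beta-tubulin of neurons, differed by 2.80 in vehicle and 2.14 in QC. TUBA1B, an alpha-tubulin made in most cells, differed by 1.32 and 1.29. TUBB3, the beta-tubulin isotype most often tied to taxane resistance, had 4.4 and 3.75 CPM against 6.36 and 4.99 and did not pass (adjusted p = 0.231). The tubulin calls were weak: the fit on all 12 libraries called 4 higher, and those without SKOV3 vehicle, SKOV3 QC, SKOV3_TR vehicle or SKOV3_TR QC called 2, 2, 3 and 0. TUBB4A lost its call whichever of the 4 libraries was left out, TUBB2B in 3 of those fits and TUBA1B in 2.

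Among 29 microtubule regulators, 10 were called higher and 5 lower, where the shares over all genes are 26.8% and 22.2%, with medians of 0.10 and 0.20. MAP2, a stabilising microtubule-associated protein of neurons, stood at 15.7 and 17.5 CPM in SKOV3 and at 262.9 and 268.6 in SKOV3_TR (log2 4.01 ± 0.21, adjusted p = 4.22e-09). NAV1, a protein that tracks growing microtubule ends, was lower, at 212.5 and 184.1 CPM against 17.5 and 10.8 (log2 -3.84 ± 0.21). The lines did not overlap for either gene, as in 76.1% of all genes tested. With SKOV3 vehicle, SKOV3 QC, SKOV3_TR vehicle or SKOV3_TR QC left out, 3, 6, 6 and 2 of the 29 were called higher and 2, 2, 3 and 1 lower, against 7 and 4 with all 12 libraries.

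Genes of the spindle checkpoint and mitosis were higher in SKOV3_TR in nearly every case, and by more in vehicle than in QC at the median. Of 21 tested, 19 were called higher, 1 lower and 0 were at least 4-fold apart in both pairs, with medians of 1.83 in vehicle and 1.0 in QC. In vehicle 10 were at least 4-fold higher and in QC 0. BUB1, a kinase of the spindle checkpoint, stood at 16 and 41.9 CPM in SKOV3 vehicle and QC and at 74.2 and 153.2 in SKOV3_TR (log2 2.04 ± 0.19, adjusted p = 1.04e-06). CDK1, the kinase that drives entry into mitosis, stood at 22.5 and 75.9 CPM against 140.1 and 250. In both genes SKOV3 vehicle was the lowest library and SKOV3 QC stayed below both SKOV3_TR libraries. Such a lack of overlap held for 76.1% of all genes tested. With all 12 libraries 13 were called higher. Of the fits that left out 1 library, without SKOV3 vehicle 1 gene was called higher, without SKOV3_TR QC 4, without SKOV3_TR vehicle 10 and without SKOV3 QC 18, and CDK1 lost its call without SKOV3 vehicle.

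Of 18 genes of the BCL2 family and the inhibitors of apoptosis, 1 was called higher and 5 lower. Over all genes the shares are 26.8% and 22.2%, so the lower calls are near the background. BCL2L1, which encodes the survival protein BCL-XL, was the gain, at 83.3 and 68.9 CPM against 236.3 and 177.1 (log2 1.43 ± 0.18, adjusted p = 2.66e-05), and it lost its call without SKOV3 QC. PMAIP1, which encodes the pro-death protein NOXA, was lower, at 92.3 and 96.6 CPM in SKOV3 and 19.3 and 19.4 in SKOV3_TR (log2 -2.29 ± 0.18, adjusted p = 2.57e-07). With SKOV3 vehicle, SKOV3 QC, SKOV3_TR vehicle or SKOV3_TR QC left out, 2, 1, 1 and 1 members were called lower, against 2 with all 12 libraries.

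Cholesterol synthesis had the largest median difference of the 22 gene lists with at least 8 members tested. SREBP2, the factor encoded by SREBF2, is known to switch on these genes when cells lack sterol, and INSIG1 holds it back. Of 23 genes tested, 19 were called higher in SKOV3_TR and 1 lower, 13 were at least 4-fold higher in both pairs, and the medians were 2.63 in vehicle and 2.57 in QC. INSIG1 stood at 10.8 and 24 CPM in SKOV3 vehicle and QC and at 222.1 and 509 in SKOV3_TR (log2 4.39 ± 0.22, adjusted p = 2.83e-09). HMGCS1, which makes the precursor of mevalonate, stood at 39.2 and 35.3 CPM against 550.2 and 962.4 (log2 4.29 ± 0.29, adjusted p = 4.63e-08). For both genes the SKOV3_TR libraries were above both SKOV3 libraries, and the QC library of SKOV3_TR was the highest. The lines did not overlap in 76.1% of all genes tested.

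The later steps went the same way. MSMO1, which removes methyl groups from the sterol ring, differed by 3.99 and 4.39, and DHCR7, which makes the final step to cholesterol, by 3.87 and 3.17. SREBF2 itself differed by 2.25 and 1.48 (log2 1.87 ± 0.24, adjusted p = 2.61e-05). EBP, an isomerase of the same pathway, was the exception, with 135 and 128 counts in SKOV3 and 28 and 13 in SKOV3_TR (log2 -2.88 ± 0.40, adjusted p = 4.94e-05). Of the 3 members that did not pass, SC5D, a late desaturase, differed by -0.28 and -0.48, and PMVK, a kinase of the mevalonate steps, by 0.17 and -0.04. Without SKOV3 vehicle, SKOV3 QC or SKOV3_TR vehicle 17 members were called higher, and without SKOV3_TR QC 19, as with all 12 libraries. In the other pairs INSIG1 differed by 0.04 and -0.23 (HeyA8) and by 1.78 and 2.53 (OV2008), and the SKOV3 pair stood 3.30 above their mean (adjusted p = 2.37e-05).

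SREBP2 binds sterol regulatory elements, and 1 form of these, searched as TCACNCCAC on both strands of the 250 bases before each gene's start, was found in 310 of 35116 promoters (0.883%). Of the 23 genes, 17 had a promoter in the table, and 1, that of SREBF2, held a match. The stretch is shown since it belongs to the regulator of the group, from RefSeq's GRCh38.p14 at chr22:41832937-41833015, plus strand, with the match in capitals, beginning 133 bases before the start.
SREBF2: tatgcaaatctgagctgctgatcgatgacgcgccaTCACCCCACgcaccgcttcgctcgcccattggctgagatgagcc
A match describes the letters only, and binding was not measured.

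Several genes of TGF-beta, WNT and YAP signalling also had large differences. YAP and its partner TAZ are known to act through TEAD factors when cells are spread or stretched, and CCN1, CCN2, ANKRD1 and AMOTL2 are their usual readouts. Of 27 genes of the TGF-beta, WNT and YAP list, 13 were called higher and 4 lower, 9 at least 4-fold higher and 0 at least 4-fold lower in both pairs, with medians of 0.86 and 1.22. CCN2, a secreted matrix protein, had 1.67 and 1.9 CPM in SKOV3 and 263.7 and 190.4 in SKOV3_TR (log2 6.98 ± 0.26, adjusted p = 4.4e-10). CCN1, its relative, had 5.97 and 7.4 CPM against 316.7 and 354.8 (log2 5.65 ± 0.23, adjusted p = 8.1e-10). ANKRD1, a nuclear ankyrin repeat protein, had no counts in SKOV3 and 416 and 209 in SKOV3_TR, at least 98.7-fold and 82.8-fold higher. AMOTL2, a junction protein that binds YAP, differed by 3.05 in vehicle and 1.63 in QC (adjusted p = 1.81e-05). In these 4 genes no SKOV3 library reached a SKOV3_TR library, and the lines did not overlap in 76.1% of all genes tested.

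TEAD factors bind the letters CATTCC, which were found on either strand of the same 250 bases in 4175 of 35116 promoters (11.9%). Of the 27 genes, 17 had a promoter in the table and 6 a match: 5 of the 11 called higher and 1 of the 6 others. The stretches of 3 of the readouts are printed, with matches on either strand in capitals (CATTCC or, on the opposite strand, GGAATG), from RefSeq's GRCh38.p14 and written along the gene, all on the minus strand: CCN2 at chr6:131951427-131951502, ANKRD1 at chr10:90921175-90921250 and AMOTL2 at chr3:134374476-134374551.
CCN2: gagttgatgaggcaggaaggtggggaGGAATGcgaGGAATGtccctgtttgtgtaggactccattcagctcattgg
ANKRD1: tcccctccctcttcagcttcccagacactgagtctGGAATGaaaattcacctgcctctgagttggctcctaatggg
AMOTL2: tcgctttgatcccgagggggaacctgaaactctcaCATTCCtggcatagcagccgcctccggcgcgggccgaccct
CCN2 carries a pair of matches that begin 104 and 95 bases before its start, and a further one 169 bases before it. The printed match of ANKRD1 begins 128 bases before the start, with a further one 220 bases before it, and that of AMOTL2 69 bases before. Such matches are a description of the letters.

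Ligands and a mediator on the list were higher too. WNT5A, a ligand of WNT signalling that acts largely without beta-catenin, stood at 5 and 1.3 CPM in SKOV3 and 139.3 and 59.8 in SKOV3_TR. TGFB2, a TGF-beta ligand, had 21 and 14 counts against 391 and 270, and SMAD3, which carries the signal to the nucleus, stood at 152.6 and 120.7 CPM against 686.2 and 695.1. TGFBR1, a TGF-beta receptor, was lower by 1.13 and 1.27 on the log2 scale. TCF7 and AXIN2, of the WNT part of the list, were also called lower and differed by -1.24 and -1.58 and by -1.55 and -1.38. Leaving out SKOV3 vehicle, SKOV3 QC, SKOV3_TR vehicle or SKOV3_TR QC left 11, 10, 11 and 10 members called higher and 1, 2, 2 and 1 lower, against 12 and 2 with all 12 libraries. The SKOV3 pair stood 5.95 above the other pairs for CCN2 (adjusted p = 2.17e-07), where the OV2008 pair differed by 2.01 and 1.36 and the HeyA8 pair by 0.26 and 0.20.

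**Figure D4:**
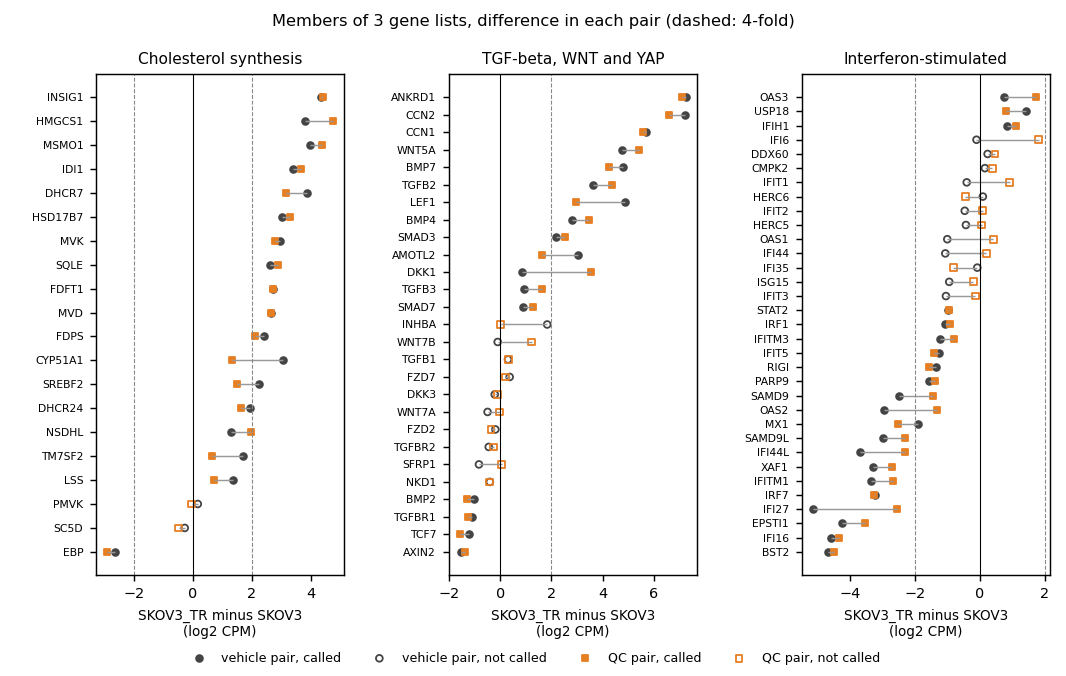
Log2 CPM difference between SKOV3_TR and SKOV3 for members of 3 gene lists (some tested members are not drawn), with circles for the vehicle pair, squares for the QC pair, filled symbols for called genes and dashed lines at 4-fold. Most cholesterol genes lie to the right and most interferon-stimulated genes that are called lie to the left, with INSIG1 at 4.35 and 4.40 and IFI16 at -4.58 and -4.34.

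Interferon-stimulated genes were lower in part. These genes rise in cells that sense interferon or foreign nucleic acid, and a basal level is common in tumour lines. Of 34 tested, 18 were called lower in SKOV3_TR and 3 higher, 9 at least 4-fold lower and 0 at least 4-fold higher in both pairs, with medians of -1.07 and -0.87. IFI16, a sensor of DNA, stood at 88.2 and 81.4 CPM in SKOV3 and 3.59 and 3.92 in SKOV3_TR (log2 -4.50 ± 0.21, adjusted p = 2.37e-09). BST2, which tethers budding viruses to the cell, stood at 59.7 and 35.5 CPM against 2.24 and 1.49 (log2 -4.67 ± 0.24), and IRF7, which drives interferon transcription, at 9.16 and 9.85 against 0.89 and 0.951. Other members went the other way or did not pass: OAS3, an enzyme that activates RNase L, was higher by 0.75 and 1.71 (adjusted p = 4.27e-04), and IFIT1, which binds foreign RNA, differed by -0.40 and 0.92 and did not pass. With SKOV3 vehicle, SKOV3 QC, SKOV3_TR vehicle or SKOV3_TR QC left out, 12, 15, 14 and 13 members were called lower, against 18 with all 12 libraries.

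Most genes of antigen presentation were lower as well. Of 19 tested, 11 were called lower and 2 higher, with medians of -0.78 and -0.95. B2M, the light chain of all class I molecules, stood at 586 and 499.1 CPM in SKOV3 and at 113.3 and 175.3 in SKOV3_TR (log2 -1.94 ± 0.25, adjusted p = 2.43e-05). HLA-B was lower by 2.65 and 1.67 on the log2 scale, with the caution that HLA genes share sequence and vary between people. NLRC5, the transactivator of class I genes, stood at 55.7 and 57 CPM against 9.06 and 8.5 (log2 -2.68 ± 0.20, adjusted p = 1.48e-07). Class II was mixed. CD74, the invariant chain, was higher, with 35 and 31 counts in SKOV3 and 480 and 294 in SKOV3_TR. HLA-DPA1 was also called higher, with no counts in SKOV3 against 27 and 16, and HLA-DMA did not pass. CIITA, the transactivator of class II genes, was lower, with 167 and 214 counts against 61 and 30 (log2 -2.24 ± 0.33, adjusted p = 9.44e-05). With SKOV3 vehicle, SKOV3 QC, SKOV3_TR vehicle or SKOV3_TR QC left out, 6, 9, 6 and 7 members were called lower, against 10 with all 12 libraries.

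Several epithelial genes were lower, without a general gain of mesenchymal genes. Of 19 epithelial genes tested, 10 were called lower and 4 higher, 5 of them at least 4-fold lower in both pairs (medians -0.61 and -0.57). ESRP2, a splicing factor that keeps the epithelial forms of transcripts, stood at 33.6 and 34.4 CPM in SKOV3 and 0.329 and 0.773 in SKOV3_TR (log2 -6.06 ± 0.33, adjusted p = 7.79e-09). EPCAM, an epithelial adhesion molecule, stood at 58 and 58.1 CPM against 3.43 and 4.58, and CDH1 (E-cadherin) at 46.4 and 56 against 11.9 and 4.1. EPCAM was lower in HeyA8_MDR than in HeyA8 by a like amount (-4.46 and -4.52). Of 18 mesenchymal genes, 7 were called higher and 4 lower, with medians of 0.22 and 0.32, where the shares over all genes are 26.8% and 22.2%. SPARC, a matrix-binding glycoprotein, stood at 10 and 2 CPM against 398 and 346, whereas LOX, which crosslinks collagen, stood at 180.1 and 161.1 against 2.54 and 3.51 (log2 -5.85 ± 0.24, adjusted p = 8.85e-10). VIM (vimentin) differed by 0.11 and 0.89 and ZEB1, a repressor of CDH1, by -0.47 and 0.01, and neither passed. With all 12 libraries 3 epithelial and 6 mesenchymal genes were called higher. Without SKOV3 QC 1 epithelial gene was called higher and without SKOV3_TR vehicle 2, while 5, 3, 5 and 4 mesenchymal genes were called higher without SKOV3 vehicle, SKOV3 QC, SKOV3_TR vehicle or SKOV3_TR QC.

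HOX genes, which set position along the body axis, differed in both directions. Of 29 tested, 13 were called lower and 7 higher, 7 at least 4-fold lower and 5 at least 4-fold higher in both pairs. Over all genes 22.2% were called lower and 26.8% higher, so the number of higher calls is near the background. HOXB2 stood at 69.1 and 76.4 CPM in SKOV3 and 0.923 and 0.951 in SKOV3_TR (log2 -6.26 ± 0.25, adjusted p = 6.85e-10), and HOXB8 at 103.7 and 103.5 against 5.17 and 5.76. HOXC9 had no counts in SKOV3 and 149 and 82 in SKOV3_TR, at least 35.4-fold and 32.5-fold higher, and HOXC10 none against 131 and 62, at least 31.1-fold and 24.6-fold. Both HOXB genes named were lower and both HOXC genes higher in each pair. With SKOV3 vehicle, SKOV3 QC, SKOV3_TR vehicle or SKOV3_TR QC left out, 11, 9, 7 and 8 were called lower and 4, 7, 5 and 5 higher, against 12 and 7 with all 12 libraries.

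Of 12 ovarian lineage genes tested, 6 were called higher and 5 lower, where the shares over all genes are 26.8% and 22.2%. Beside ESR1 and FOLR1, MUC16, which encodes the serum marker CA125, had 260 and 193 counts in SKOV3 and 8 and 2 in SKOV3_TR (log2 -5.73 ± 0.44, adjusted p = 1.9e-07). PGR, the progesterone receptor and a classical estrogen receptor target, was in the other direction, with 6 and 2 counts against 744 and 324 (log2 6.81 ± 0.39, adjusted p = 1.13e-08). It could be tested in 2 of the fits that left out 1 library, and its call was lost in 1 of them. PAX8, the factor of the Müllerian lineage, was abundant in both lines, at 374.8 and 257.8 CPM against 535.1 and 481.3. The fit on all 12 libraries called 4 higher and 5 lower. With 1 library left out 5 were called lower each time, and 2, 3, 2 and 2 were called higher without SKOV3 vehicle, SKOV3 QC, SKOV3_TR vehicle or SKOV3_TR QC.

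**Figure D5:**
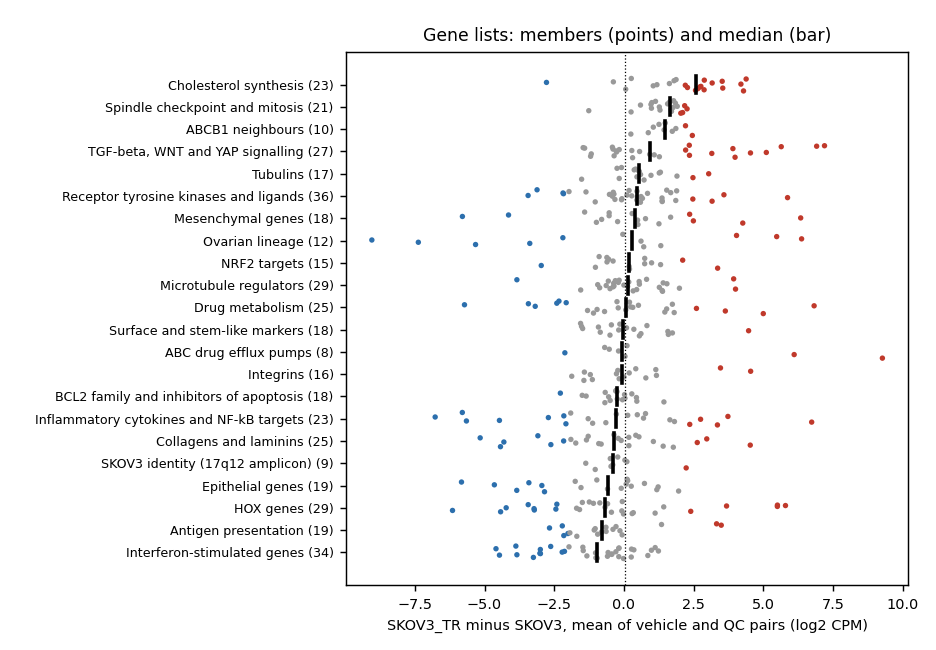
Mean log2 CPM difference of the vehicle and QC pairs for each tested member of 22 gene lists, with a bar at each list's median and a dotted line at the median of all genes tested (0.04). Red points have a mean of 2 or more and blue points of -2 or less, and the cholesterol list has the highest median while the interferon list has the lowest.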

How the data were processed

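The deposited table holds whole-number counts of reads per gene, which the authors made with HTSeq and did not normalize. The labels' processing notes name STAR 2.7.3a, HTSeq 0.6.1p1 and GRCh38.p13, while the paper's methods name TopHat and hg19, and the strand setting is not given in the sources used here. Without strand, reads from overlapping and antisense genes cannot be told apart. Symbols were matched by gene ID for 58663 of 60669 IDs, and all IDs stayed in the tests. No row outside genes was present. All genes entered the tests and list counts, and some of them are not reported here.

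Counts of the 4 libraries were filtered with edgeR 4.0.16 (filterByExpr by line, minimum count 10, minimum total 15), scaled by TMM and fitted with a treatment term and a line term in R 4.3.3, which left 1 residual degree of freedom. Tests were two-sided with Benjamini-Hochberg adjustment over all genes tested, and log2 CPM used a prior count of 2. The SKOV3 pair was set against the other pairs in a fit of all 12 libraries (1 term per line, QC terms for sensitive and resistant lines). Named genes were the 12 higher and 12 lower with the largest mean difference among called protein-coding genes with at least 100 counts in both libraries of the higher line, and up to 3 members per direction of each list. Members named beyond these, the genes of chromosome runs and those outside the lists were chosen after their values were seen. The members and lists were chosen with earlier results of these data known. In simulated counts all genes had the observed common dispersion of 0.0285. There the fit of the 4 libraries called 60% of 100 genes changed 2-fold, 100% of 100 changed 4-fold and 7 of 17155 unchanged genes. Spread that differs from gene to gene or between cultures was not tested. Alternatives were other libraries in the fit, no treatment term, DESeq2 1.42.0, other scaling, other filters, single pairs, each library left out and an added 2-fold minimum. Promoters came from RefSeq, and plots from matplotlib 3.10.9.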

Additional observations from a re-analysis of the deposited data

Results flagged for a closer look

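The difference of the SKOV3 pair from the other pairs (edgeR's quasi-likelihood test, adjusted p under 0.05) was read for the 24 genes with the largest line differences and for the member with the smallest p of each list. Of these 46 genes, 33 passed, where 17.1% of all genes did, and since they were named for their difference in the SKOV3 pair this share is a description. Values are the SKOV3 pair difference minus the mean of the other pairs on the log2 scale, and those of genes with no counts in a line depend on the prior count.

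Among the genes with the largest gains in SKOV3_TR the value was 11.63 for CLDN16, 11.33 for ABCB1, 9.17 for APOE, 8.39 for ALPK2 and 7.15 for DAW1. It was 12.35 for STRA6 and 10.89 for ANKRD2, which had no counts in SKOV3. VWF, read as the first member of its list and also without counts in SKOV3, gave 10.59. Among the genes nearly silent in SKOV3_TR it was -9.87 for P4HTM, -8.97 for ZNF532, -8.62 for ESR1, -8.43 for IDO1, -8.40 for CYBA and -8.27 for PRDX2. Lower first members of the lists gave -7.14 for ESRP2, -6.33 for LOX, -5.89 for HOXB2, -5.16 for IL1A, -4.25 for IFI16, -3.95 for COL7A1, -3.22 for PMAIP1 and -2.65 for NLRC5. Higher first members gave 5.95 for CCN2, 5.18 for ERBB4, 4.76 for CYP1A1, 4.11 for MAP2, 3.61 for MT2A, 3.30 for INSIG1, 3.16 for TUBB4A, 2.59 for GRB7, 2.38 for BUB1, 2.31 for HMOX1 and 1.33 for ELAPOR2. EPCAM was not among them: its pair difference was close to that in the HeyA8 pair, and the test gave -0.69 (adjusted p = 0.738).

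In 4 protein-coding genes with at least 100 counts in 2 or more libraries the lines were at least 2-fold apart in opposite directions in vehicle and QC, which was not tested. HSPA8, a constitutive chaperone, was lower in SKOV3_TR in vehicle (-1.23) and higher in QC (1.12), a change of 2.35, from 1555 and 1076 CPM in SKOV3 and 664 and 2345 in SKOV3_TR. CHAC1, an enzyme that degrades glutathione, went from 1.14 to -2.91, a change of -4.05, with 59.7 CPM in SKOV3_TR vehicle and 5.11 in SKOV3_TR QC. JDP2, a repressor of the AP-1 family, changed by -2.21 and SIGLEC15, a sialic acid receptor, by 3.24.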

How the results depend on the processing

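The number of genes called moved by over 1.5 times with some choices. Of 4652 higher and 3846 lower genes, the fit on the 8 libraries of the SKOV3 and OV2008 families called 2983 and 2353, an added difference of at least 2-fold in both pairs left 2797 and 1768, and fits of the 12 libraries less SKOV3 vehicle, SKOV3 QC, SKOV3_TR vehicle or SKOV3_TR QC called 1546, 1537, 1650 and 1523 higher and 1293, 1299, 1349 and 869 lower. Against 1368 and 650 genes at least 4-fold apart in both pairs, a fit of the genes with at least 10 counts in every library gave 415 and 289, and of the 1368 and 650 themselves 406 and 303 had such counts. The QC pair alone held 1026 at least 4-fold lower. The remaining alternatives stayed within 1.5 times, with 5519 of the 5745 genes called by the fit on 12 libraries and 6149 of the 6199 called by DESeq2 shared in the same direction. Higher genes made up 54.7% of calls, 52.3% to 55.9% under other fits with all 4 libraries, 61.3% with the 2-fold minimum, and 63.7% without SKOV3_TR QC. The 3490 genes that differed from the other pairs became 3002 to 4224.

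Over the 144 genes named by rule, 1945 values were recomputed. Of these, 131 lost the call, for 43 genes when 1 library was left out and for 15 genes under another choice. The other 1814 did not, and none changed direction. The 1814 include each gene's difference in the vehicle pair alone and in the QC pair alone, which have no threshold. The rule for calling fixes the direction of these single-pair values, so they could not count as lost or reversed. A further 28 values, all from fits that left out 1 library, had a test statistic near 0 beside a large fold and were not used. In the counts of list members called, genes with such values stand as not called. With 1 library per line and treatment, a difference between lines has no replicate culture behind it, and genes with few counts in 1 line have folds that depend on the prior count. The reported fit pairs the libraries by treatment, and dropping its treatment term gave 8097 calls, 7950 of them shared.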

Other observations

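Genes of the matrix and its receptors differed in both directions. Of 25 collagen and laminin genes tested, 11 were called lower and 7 higher in SKOV3_TR, where the shares over all genes are 22.2% and 26.8%. COL7A1, the collagen of anchoring fibrils, stood at 457.4 and 409 CPM in SKOV3 vehicle and QC and at 20.4 and 23.3 in SKOV3_TR (log2 -4.31 ± 0.23, adjusted p = 5.5e-09), whereas COL4A5, a basement membrane collagen, had 42 and 33 counts against 1639 and 583. Among 16 integrins, 5 were called higher and 5 lower, against the same shares over all genes. ITGB3, the beta 3 chain, stood at 10.3 and 6.85 CPM against 203.6 and 191.9 (log2 4.55 ± 0.22, adjusted p = 2.47e-09), and ITGB8, which activates TGF-beta, at 43.3 and 28.3 against 454.6 and 327.3. The fit on all 12 libraries called 12 collagen and laminin genes lower, and 6 without SKOV3_TR vehicle. It called 3 integrins higher and 3 lower, with 2 higher without SKOV3 QC or SKOV3_TR vehicle and 1 lower without SKOV3 vehicle.

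Secreted signals differed in both directions. For both lists of this paragraph the background is 26.8% called higher and 22.2% called lower over all genes. Of 23 inflammatory genes tested, 8 were called higher and 10 lower. IL1A, an alarm cytokine, stood at 75.4 and 39.2 CPM in SKOV3 and 0.791 and 1.25 in SKOV3_TR (log2 -5.85 ± 0.34, adjusted p = 1.27e-08), and CSF3, a growth factor for neutrophils, had 234 and 175 counts against none. CCL2, which attracts monocytes, had no counts in SKOV3 and 324 and 141 in SKOV3_TR, at least 76.9-fold higher in vehicle. With all 12 libraries 5 were called higher and 8 lower, with SKOV3 QC left out 3 were called higher, and with SKOV3 vehicle left out 6 were called lower. Of 36 receptor tyrosine kinases and ligands, 15 were called higher and 7 lower, with 9 higher in the fit on all 12 libraries and 5 in that fit without SKOV3 QC. ERBB4, a relative of ERBB2, stood at 8.61 and 5.9 CPM against 86 and 48.1, and lost its call without SKOV3_TR vehicle.

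Of 25 drug metabolism genes, 8 were called higher and 9 lower, and over all genes the shares are 26.8% and 22.2%. The fit on all 12 libraries called 8 higher, and 4 without SKOV3_TR QC. CYP1A1, the classical target of the aryl hydrocarbon receptor, stood at 1.8 and 1.5 CPM in SKOV3 and 42.9 and 71 in SKOV3_TR (log2 5.05 ± 0.28, adjusted p = 8.17e-09), whereas ALDH3A1, an aldehyde dehydrogenase, had 555 and 401 counts against 10 and 6. Of 15 genes of the NRF2 list, 4 were called higher and 5 lower, against the same shares, and 3 were lower with all 12 libraries. The list holds, beside targets, NFE2L2, which encodes NRF2, and its inhibitor KEAP1, and both are among the 5 lower. SLC7A11, a target, was lower, at 701.3 and 593.1 CPM in SKOV3 against 124.4 and 54.7 in SKOV3_TR. HMOX1, which breaks down heme, stood at 8.15 and 10.4 CPM against 70 and 129.2. Of 10 metallothioneins 2 could be tested and both were called higher, where 26.8% of all genes were. MT2A stood at 20 and 24.1 CPM against 159.6 and 426.9. The smaller difference of MT1X ran from 0.86 to 2.43 on the log2 scale with 1 library left out. Of 4 cancer-testis antigens tested 3 were called higher and 1 lower, also with all 12 libraries. GAGE2A and PRAME had no usable test once 1 library was left out, so their dependence on single libraries could not be read. With 1 library left out, MAGEB2 differed by 10.46 to 13.24 where it could be tested, and SPANXB1, the lower member, by -9.79 to -3.93. GAGE2A, from a family of near-identical copies, had 1 and 0 counts against 678 and 574. Of 18 surface and stem-like markers 5 were called higher and 4 lower, close to the shares over all genes. The fit on all 12 libraries called 3 higher and 5 lower, with 2 higher without SKOV3 QC, SKOV3_TR vehicle or SKOV3_TR QC and 1 lower without SKOV3_TR QC.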
